A study of Mus musculus with 8 samples.

Results

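Trp53 encodes p53, the transcription factor that answers DNA damage and other stress. The genes examined were Trp53, its relatives Trp63 and Trp73, and 7 genes that are p53 targets or act on p53: Mdm2, Ccng1, Cdkn1a, Btg2, Gtse1, Sesn2 and Fas. They were chosen by symbol, and all 10 were found among the 22744 genes of the deposited expression table. Their RNA was measured in 6 libraries of whole testis, taken on postnatal day 8 (P8) on a C57BL/6 background, 3 from animals null for Dmrt6 and 3 from wild-type animals. Dmrt6, listed in the table as Dmrtb1, encodes DMRT6, a DNA-binding protein of male germ cells. How the null allele was made is not given in the sources used here. Binding was read from 14862 peaks of 1 DMRT6 chromatin immunoprecipitation (ChIP) library and 1 input library from adult wild-type testis, on a background labelled C57BL/6, Mixed. The study's design sets null against wild-type expression at P8 and asks where the protein lies in the adult testis.

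p53 is held low in unstressed cells because Mdm2, itself a p53 target, marks it for destruction. When p53 is freed it raises genes that stop the cell cycle (Cdkn1a, Btg2), limit growth under stress (Sesn2) or favour cell death (Fas), and genes that turn it off again (Mdm2, Ccng1). In the testis p53 is best known from the response of spermatogonia and spermatocytes to DNA damage, including the breaks that meiosis makes. p63 guards the germ line and also marks basal cells of stratified epithelia, and p73 is known from neurons and from the support of germ cells.

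The expression values are log2 CPM, read counts scaled to library size, and differences are null minus wild type. The recovered reads came to between 23.8 and 29.0 M a library, and a count of 0 at that depth allows up to 3 reads. Dmrtb1 itself had log2 CPM of -0.88, -0.13 and 0.03 in null libraries, against 3.03, 4.12 and 3.21 in wild-type libraries. Its change was -3.78 (SE 0.36, limma adjusted p = 0.0516), just short of the threshold of 0.05 used here. The germ cell and Sertoli cell marker lists were detected: no member of either that the table holds lacked reads in all 6 libraries. Null replicate 3 stood apart on the first principal component, at 54.3 against -20.2 to 1.68 for the other libraries. Whole testis mixes cell types, so fewer cells of a type and less RNA per cell cannot be told apart.

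Sesn2 and Btg2 had higher levels in every null library than in any wild-type library, and the other 8 genes overlapped between genotypes. Genes entered the test with a mean log2 CPM of 0 or more. Of the 10 genes, 9 were tested with limma, and Trp73 was too low. None of the 9 passed an adjusted p of 0.05 over all 16634 genes tested, a threshold that 0.00601% of all tested genes passed, which is the 1 gene Gm5859 (named after its value was seen). limma's voom on recovered reads also called 0 of the 9. At an unadjusted p below 0.05, 2 of the 9 were higher in null and 0 lower, where 1.63% of all tested genes were higher and 1.85% lower. The null libraries lay wholly above wild type for 2 of the 9 and wholly below for 0, against 5.06% and 6.02% of all tested genes. Of the 9, 7 were higher in null by some amount, against 51.7% of all tested genes. Their median change was 0.16, and that of all tested genes 0.01. It was 0.03 without null replicate 2 and 0.08 without wild-type replicate 3.

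**Figure D1:**
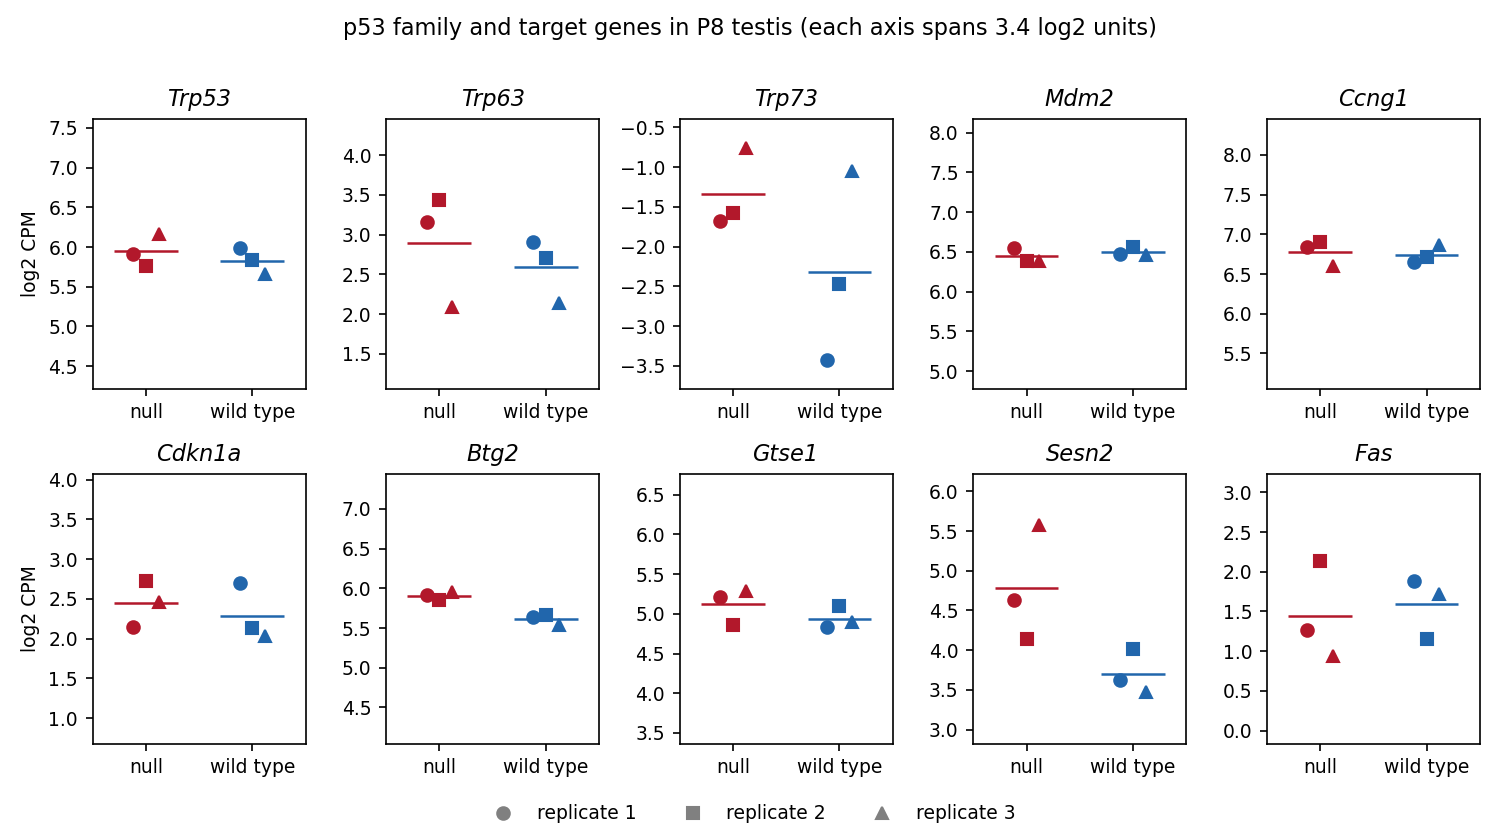
Log2 CPM of the 10 genes in each P8 testis library, null (red, left) and wild type (blue, right), with symbols for the replicate number and a line at the group mean. Every axis spans the same number of log2 units. Sesn2 and Btg2 are the panels in which the groups do not overlap.

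The 3 transcription factors of the family did not separate by genotype. Trp53 (ENSMUSG00000059552, chromosome 11, 69393861 to 69405375, plus strand, mm9) had log2 CPM of 5.92, 5.76 and 6.17 in null libraries, against 5.98, 5.84 and 5.67 in wild-type libraries. Null replicate 3 was the highest of the 6 libraries and wild-type replicate 3 the lowest, with the rest interleaved. The change was 0.12 (SE 0.14, 95% interval -0.20 to 0.44, limma adjusted p = 0.775).

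Trp63 (ENSMUSG00000022510, chromosome 16, 25683849 to 25892188) had log2 CPM of 3.15, 3.43 and 2.08 in null libraries, against 2.91, 2.71 and 2.14 in wild-type libraries. The lowest libraries were replicate 3 of each genotype, so the spread within a genotype was wider than the change of 0.30 (SE 0.37, 95% interval -0.54 to 1.15). Leaving out null replicates 1, 2 and 3 in turn gave changes of 0.17, 0.03 and 0.71 (unadjusted p = 0.0201, adjusted p = 1.00 in limma for the last). Leaving out wild-type replicates 1, 2 and 3 gave 0.47, 0.36 and 0.08. Genes of epithelial cells varied over the same libraries. The summed level of 8 of them, the keratin genes Krt5, Krt14, Krt7, Krt8, Krt18 and Krt19, the tight junction gene Cldn4 and the cadherin gene Cdh16, was 161, 202 and 63.0 CPM in null libraries, against 156, 106 and 37.1 CPM in wild-type libraries. This list was chosen after the values were seen. For 7 of the 8 the lowest pair of libraries was replicate 3 of each genotype, as for Trp63. The part of epithelial RNA in the Trp63 level was not tested.

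**Figure D2:**
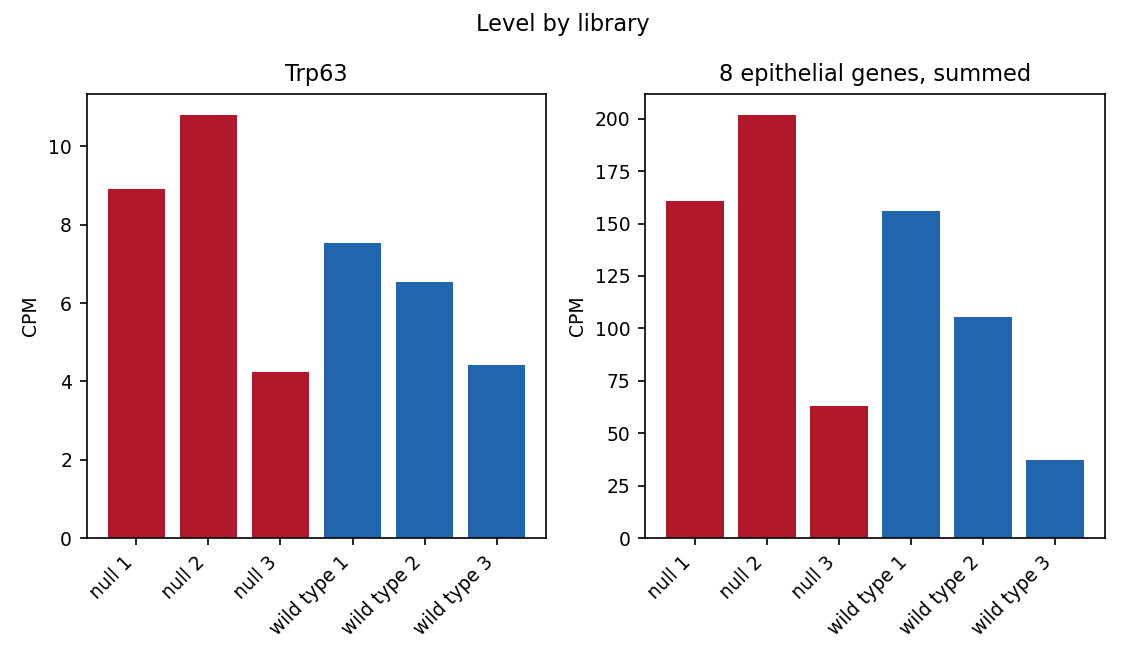
Trp63 level (left) and the summed level of 8 epithelial genes (right) in CPM, 1 bar for each library, null in red and wild type in blue. Replicate 3 of each genotype holds the lowest bars in both panels, and null replicate 2 the highest, at 202 CPM for the sum.

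The genes whose pattern over the 6 libraries was most like that of Trp63 were Tmem150c, Paqr5 and Fxyd3. Likeness was the root mean square distance between log2 CPM values centred on each gene's mean, which came to 0.10, 0.11 and 0.15 for these 3. Trp73 (ENSMUSG00000029026, chromosome 4, 153430358 to 153514317, minus strand) was near the limit of detection. It had 8, 9 and 15 reads in null libraries, against 2, 5 and 13 reads in wild-type libraries. Wild-type replicate 3 lay between null replicates 2 and 3, and the 2 reads of wild-type replicate 1 were below the limit of 3. The Trp73 and Sesn2 genes lie on the chromosome of Dmrtb1, at 46.2 and 24.7 Mb from it.

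The genes of the feedback on p53 varied little between libraries. Mdm2 (ENSMUSG00000020184, chromosome 10, 117125944 to 117147814, minus strand), the ubiquitin ligase of p53, had log2 CPM of 6.55, 6.39 and 6.39 in null libraries, against 6.48, 6.56 and 6.46 in wild-type libraries. The change was -0.06 (SE 0.09, 95% interval -0.28 to 0.16). Ccng1 (ENSMUSG00000020326, chromosome 11, 40562054 to 40568813, minus strand), which encodes cyclin G1, a p53 target that acts on Mdm2, had log2 CPM of 6.84, 6.91 and 6.61 in null libraries, against 6.65, 6.71 and 6.86 in wild-type libraries. Its change was 0.04 (SE 0.11, 95% interval -0.22 to 0.30), and the sign turned under median centring (-0.0060), without null replicate 2 (-0.020) and without wild-type replicate 1 (-0.0033). The 6 libraries spanned 0.18 log2 units for Mdm2 and 0.30 for Ccng1, the narrowest ranges of the 10 genes, and the genotypes interleaved in both.

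Of Cdkn1a and Btg2, which slow the cell cycle, Cdkn1a overlapped between the genotypes and Btg2 did not. Cdkn1a (ENSMUSG00000023067, chromosome 17, 29227924 to 29237667, plus strand) encodes p21, the inhibitor of cyclin-dependent kinases. It had log2 CPM of 2.14, 2.72 and 2.47 in null libraries, against 2.70, 2.13 and 2.03 in wild-type libraries. High and low libraries were found in both genotypes, and the change was 0.16 (SE 0.25, 95% interval -0.42 to 0.73). The 250 bases before the first RefSeq start of Cdkn1a are shown because they carry a p53 motif (GRCm38.p6, chr17:29090729-29090978, plus strand). Capitals mark the match, a pair of p53 consensus decamers up to 13 bases apart, and it ends 42 bases before the start.
Cdkn1a: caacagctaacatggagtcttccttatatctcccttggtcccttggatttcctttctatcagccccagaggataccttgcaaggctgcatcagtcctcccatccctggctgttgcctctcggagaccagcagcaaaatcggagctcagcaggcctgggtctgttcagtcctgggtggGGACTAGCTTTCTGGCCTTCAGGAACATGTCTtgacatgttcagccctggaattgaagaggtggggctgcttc

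Such a pair was found in 1 of 12 windows of the 9 genes for which RefSeq windows were matched, and in 0.0639% of all 32841 mouse promoter windows of that length. Windows were matched for every gene but Trp63, and each is the 250 bases before a start. A single decamer was found in 4 of the 12 windows and in 7.13% of all windows. A match is a description of the letters and does not show that p53 was bound in these testes.

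Btg2 (ENSMUSG00000020423, chromosome 1, 135971747 to 135975697, minus strand) encodes an antiproliferative protein that joins the deadenylase complex. It had log2 CPM of 5.91, 5.85 and 5.95 in null libraries, against 5.64, 5.66 and 5.54 in wild-type libraries. The lowest null library exceeded the highest wild-type library, and the spread within each genotype was small, with means of 5.90 ± 0.05 in null and 5.61 ± 0.07 in wild type (SD, n = 3 each). The change was 0.29 (SE 0.10, 95% interval 0.07 to 0.51, unadjusted p = 0.0176, adjusted p = 0.755 in limma), or 1.22 times wild type. Unadjusted p stayed below 0.05 in 9 of 14 alternative settings, and in the other 5 it was 0.0539 with quantile normalization, 0.0591 with median centring, 0.0792 with the replicate number as a block, 0.0535 without null replicate 1 and 0.0775 without wild-type replicate 3. Adjusted p ran between 0.0526 and 1.00 over those settings.

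Gtse1 (ENSMUSG00000022385, chromosome 15, 85690137 to 85707002, plus strand) encodes a protein of the G2 and S phases that opposes p53. It had log2 CPM of 5.22, 4.86 and 5.29 in null libraries, against 4.84, 5.09 and 4.89 in wild-type libraries. Null replicate 2 lay among the wild-type libraries, and the change was 0.18 (SE 0.15, 95% interval -0.16 to 0.53). Genes of dividing cells lay on the other side: 10 of 12 mitotic cell cycle genes were lower in null, with a median change of -0.24, and 0 passed an adjusted p of 0.05. At an unadjusted p below 0.05 in limma, 7 of the 12 were lower, against 1.85% of all tested genes. With a library left out this count was 2 to 7, the lowest being 2 with wild-type replicate 3 left out and 3 with wild-type replicate 1 left out, while the median stayed between -0.28 and -0.19. Those with the smallest p were the ribonucleotide reductase gene Rrm2 (-0.49, SE 0.13), the spindle motor gene Kif11 (-0.31, SE 0.09) and the cyclin gene Ccnb2 (-0.35, SE 0.12). The summed level of all 12 genes was 1735 to 1916 CPM in null libraries, against 2088 to 2171 CPM in wild-type libraries. The difference between Gtse1 and this list was not tested.

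Sesn2 had the largest change of the tested genes of the set. It encodes sestrin 2, a stress-induced protein that restrains growth signalling through mTORC1, and it lies on chromosome 4 (ENSMUSG00000028893, 132047947 to 132066416, minus strand). It had log2 CPM of 4.63, 4.15 and 5.57 in null libraries, against 3.63, 4.02 and 3.47 in wild-type libraries. The reads behind these values were 651, 488 and 1225 in null libraries, against 294, 474 and 305 in wild-type libraries. Null replicate 2 was only just above wild-type replicate 2, and null replicate 3 was far above every other library. The mean was 4.78 ± 0.73 in null and 3.71 ± 0.28 in wild type (SD, n = 3 each). The change was 1.08 (SE 0.34, 95% interval 0.30 to 1.85, unadjusted p = 0.0128, adjusted p = 0.755 in limma), or 2.11 times wild type, higher than that of 99.7% of tested genes.

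The size of the Sesn2 change rested in part on null replicate 3. Without it the change was 0.68, and without null replicate 2 it was 1.39. Unadjusted p stayed below 0.05 in all 14 alternative settings, while adjusted p ran between 0.0396 and 1.00. The adjusted p of 0.0396 came from array weights, a fit in which null replicate 1 took a weight of 19.3 and the other libraries weights of 0.153 to 1.46, and the estimation of the weights stopped before it converged. Sertoli cell markers varied over the same libraries. Their list score, the median over the list of log2 CPM minus each gene's mean, was 0.13, -0.40 and 0.57 in null replicates 1, 2 and 3, against 0.00, -0.05 and -0.28 in wild-type replicates 1, 2 and 3. The order of the null libraries is the same for Sesn2 and for this score, and that of the wild-type libraries is not. The germ cell list score was 0.03, 0.01 and 0.36 in null replicates 1, 2 and 3, against -0.18, 0.02 and -0.20 in wild-type replicates 1, 2 and 3, and its order is that of Sesn2 within both genotypes. The summed level of the Sertoli cell markers ran between 1943 and 2573 CPM in null libraries and between 2204 and 2372 CPM in wild-type libraries, and 6 of 7 tested markers were higher in null, Sox9, a transcription factor of Sertoli cells, by 0.49 (SE 0.32). Without null replicate 3 the Sertoli list had 3 of 7 markers higher, a median change of -0.01 against 0.22 with all libraries, and a Sox9 change of 0.08. The part of Sertoli or germ cell RNA in the Sesn2 change was not tested.

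Genes near Sesn2 on chromosome 4 had a median change close to 0. Of 41 other tested genes within 1 Mb, 1 was higher and 1 lower in null at an unadjusted p below 0.05 in limma, and their median change was 0.00. Within 5 Mb, 6 of 172 were higher and 11 lower at that p, with a median of 0.03. Near Trp73, 2 of 20 other tested genes within 1 Mb were higher and 0 lower at that p, with a median of 0.19. Within 5 Mb of Trp73, 3 of 104 were higher and 1 lower, with a median of 0.13. Of all tested genes 1.63% were higher and 1.85% lower at that p. The genes most like Sesn2 over the 6 libraries lay on other chromosomes: Qrfp on 2, Abcc8 on 7 and Nbeal2 on 9, at root mean square distances of 0.14, 0.16 and 0.17. The changes of these 3 genes were 0.98, 0.78 and 0.81, and null replicate 3 was the highest library for each. Likeness over 6 libraries describes these libraries only.

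Fas (ENSMUSG00000024778, chromosome 19, 34365149 to 34402260, plus strand) encodes the death receptor for Fas ligand. It had log2 CPM of 1.27, 2.14 and 0.93 in null libraries, against 1.89, 1.16 and 1.72 in wild-type libraries. The null libraries held both the highest and the lowest value, and the change was -0.14 (SE 0.35, 95% interval -0.96 to 0.67). Its sign turned without null replicate 3 and without wild-type replicate 1, at 0.11 and 0.01. Fasl, the ligand gene, was below the filter, with a mean log2 CPM of -2.48 over the 6 libraries.

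**Figure D3:**
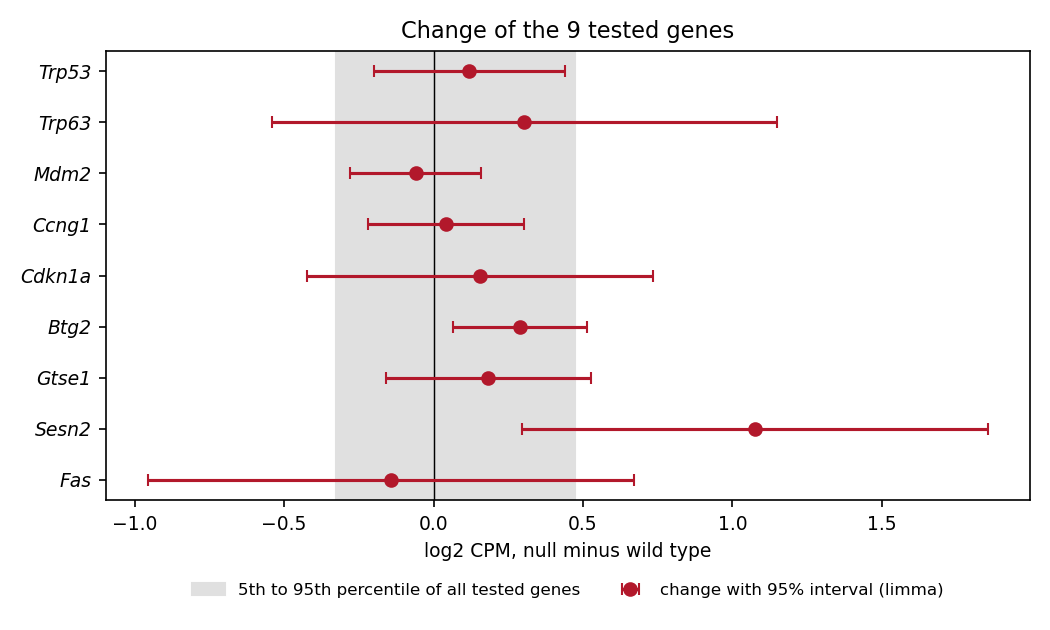
Change in log2 CPM, null minus wild type, for the 9 tested genes, with 95% intervals from limma. The grey band spans the 5th to 95th percentile of all tested genes, -0.33 to 0.47. The intervals of Sesn2 and Btg2 lie above 0, and the Sesn2 point is the only one beyond the band.

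Other genes of the p53 pathway were mostly a little higher in null. Of 44 tested genes in 3 lists, 32 were higher and 12 lower in null, with a median of 0.08 against 0.01 for all tested genes, of which 51.7% were higher. In limma 0 of the 44 passed an adjusted p of 0.05, and the unadjusted p was under 0.05 for 2, where 3.47% of all tested genes had one. The null libraries lay wholly above wild type for 4 and wholly below for 3, against 5.06% and 6.02% of all tested genes. Without null replicate 3, 26 were higher and 18 lower, and the median was 0.05.

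Among 17 targets for arrest and repair, 12 were higher and 5 lower, and the median was 0.04. Ddit4, like Sesn2 a stress gene that restrains mTORC1, had log2 CPM of 6.04, 5.64 and 6.29 in null libraries, against 5.35, 5.63 and 5.37 in wild-type libraries. The lowest null library was barely above the highest wild-type library, and the change was 0.54 (SE 0.18, unadjusted p = 0.0154, limma adjusted p = 0.755). Sfn, which encodes the epithelial checkpoint protein 14-3-3 sigma, had log2 CPM of 2.27, 2.09 and 0.93 in null libraries, against 3.17, 2.52 and 3.29 in wild-type libraries. Each null library was lower than every wild-type library, with a change of -1.23 (SE 0.38, unadjusted p = 0.0115, limma adjusted p = 0.755), and of -0.82 without null replicate 3. Its highest library was wild-type replicate 3, where the epithelial sum was lowest, at 37.1 CPM. Its lowest was null replicate 3, where that sum was next to lowest, at 63.0 CPM. The part of epithelial RNA in the Sfn level was not tested. The DNA repair gene Xpc differed by 0.15 (SE 0.10).

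Among 11 tested cell death targets, 8 were higher and 3 lower, with a median of 0.12, and limma gave 0 of them an unadjusted p below 0.05. Without null replicate 3, 5 were higher and 6 lower, with a median close to 0 (-0.0042), and the median was 0.07, 0.07 and 0.06 when null replicate 2, wild-type replicate 1 and wild-type replicate 3 were left out in turn. The table held no row named Pidd1 or Pidd. Bax, which opens the mitochondrial outer membrane, was at 5.97 ± 0.13 in null and 5.76 ± 0.09 in wild type (SD, n = 3 each), a change of 0.21 (SE 0.11), or 0.14 without null replicate 3. The exonuclease gene Aen differed by 0.24 (SE 0.13), and Pmaip1, which encodes the BH3-only protein NOXA, by -0.33 (SE 0.17). Among 16 regulators and partners of p53, 12 were higher and 4 lower, with a median of 0.10. Their smallest p-values belonged to the kinase gene Hipk2 (0.43, SE 0.25), to Ppp1r13b (0.32, SE 0.21), which encodes the p53 partner ASPP1, and to the checkpoint kinase gene Chek2 (-0.19, SE 0.12). Without null replicate 3 the median of the regulators was 0.05, the Hipk2 change 0.18 and the Ppp1r13b change 0.09. Chek2 was lower in every null library than in any wild-type library. Of 6 tested relatives of the set, 3 were higher and 3 lower, and Ccng2, the relative of Ccng1, differed by -0.26 (SE 0.13), Btg1 by -0.07 and the cyclin-dependent kinase inhibitor gene Cdkn1b by 0.07.

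**Figure D4:**
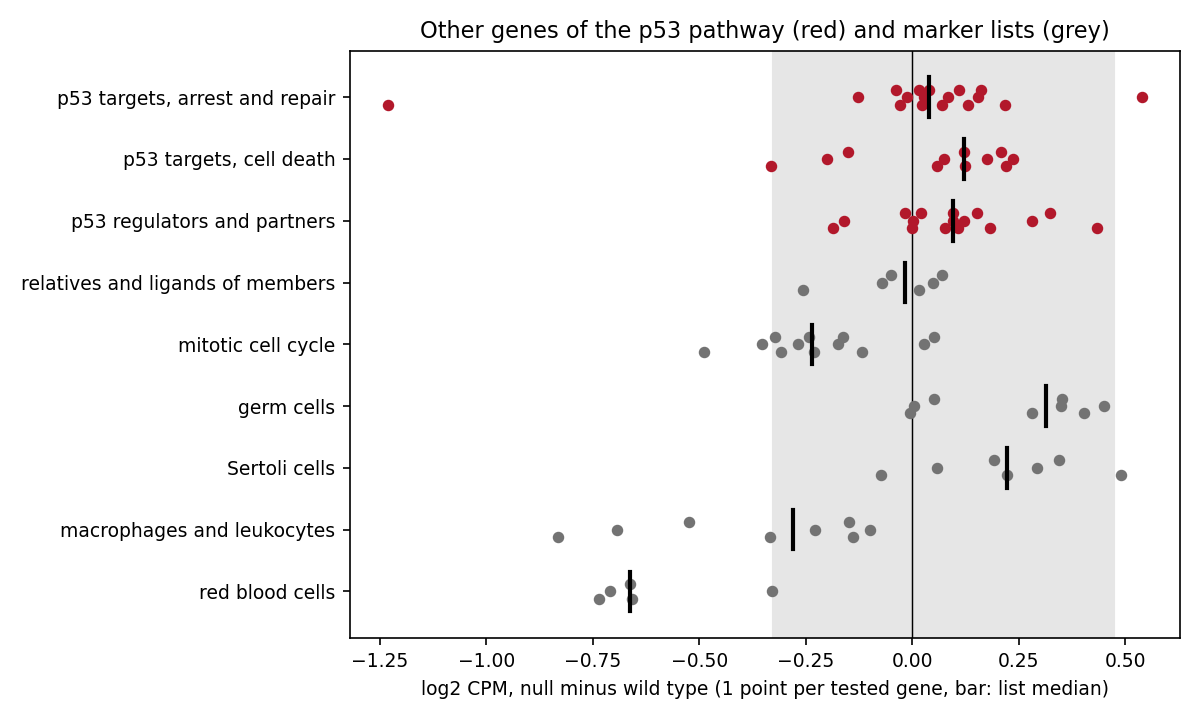
Change in log2 CPM, null minus wild type, of each tested gene in the p53 pathway lists (red) and other lists (grey), with a bar at the list median and a grey band for the 5th to 95th percentile of all tested genes. The p53 lists centre between 0.04 and 0.12, and the far point at left is Sfn at -1.23.

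Markers of other cell types were set beside these values. All 5 red blood cell genes were lower in null, with a median of -0.66, or -0.43 without null replicate 3, and all 8 macrophage and leukocyte genes were lower, with a median of -0.28, or -0.12 with 6 of 8 lower without wild-type replicate 1. The summed red blood cell level was 717 to 1255 CPM in null libraries and 1477 to 1776 CPM in wild-type libraries. The alpha globin gene Hba-a2 differed by -0.73 (SE 0.22) and the beta globin gene Hbb-b2 by -0.71 (SE 0.19), and without null replicate 3 by -0.46 and -0.47. Globin genes of a cluster are near copies, so how reads were split between them is uncertain. The leukocyte level was 90.1 to 122 CPM in null libraries and 104 to 155 CPM in wild-type libraries, and the adaptor gene Tyrobp differed by -0.83 (SE 0.25). Among 8 germ cell markers the median change was 0.31 and 7 were positive. Ddx4 and Stra8, counted among the 7, differed by only 0.05 and 0.0028, and Dazl by -0.0063. Zbtb16 and Dmrt1 differed by 0.45 and 0.35. The summed germ cell level overlapped, at 1378 to 1636 CPM in null libraries and 1289 to 1453 CPM in wild-type libraries. The smallest p-values of the germ cell list belonged to Sohlh2 (0.28, SE 0.10), Sohlh1 (0.40, SE 0.14) and Kit (0.35, SE 0.13). Without null replicate 3 the germ cell median was 0.12. None of these genes passed an adjusted p of 0.05 in limma, and at an unadjusted p below 0.05 4 red blood cell and 3 leukocyte genes were lower and 3 germ cell genes higher, against 1.85% of all tested genes lower and 1.63% higher. The germ cell count was 0 with wild-type replicate 1 left out and 1 with wild-type replicate 3 left out. Their part in the values of the p53 genes was not tested.

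DMRT6 peaks in adult testis lay within 10 kb of the 5' end of 5 of the 10 genes, against 27.9% of all genes in the table. Over tested genes alone that share was 31.2%. A peak was placed by its middle, and the 5' end was taken from each gene's single start and end in the table. The scores are the authors' own, with a lowest value of 50.02 and a median of 94.7, and with 1 ChIP library no peak has a replicate check. Gtse1 and Sesn2 had a peak within 1 kb, as had 12.9% of all genes. The other 3 were Trp73, Cdkn1a and Fas, while Trp53, Trp63, Mdm2, Ccng1 and Btg2 had none within 10 kb.

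The Gtse1 peak spans the gene's start: it runs on chromosome 15 from 85689855 to 85690178 (mm9), which is 282 bases before to 41 bases after the 5' end, with a score of 193. The next peak, 19.5 kb downstream at a score of 108, lay 102 bp from the 5' end of Trmu. The Sesn2 peak runs on chromosome 4 from 132066926 to 132067178, 762 to 510 bases upstream, with a score of 207, and ranks 2387 of 14862. A second one lay 30.0 kb upstream. The 250 bases before the RefSeq starts of both genes are shown because these starts lie under or beside a peak, for Gtse1 the first of its starts (GRCm38.p6, chr15:85859457-85859706, plus strand) and for Sesn2 (chr4:132510457-132510706, minus strand). Capitals mark CCAAT on either strand. No genome of the peaks' build was used, so the windows are not placed against the peaks base by base. Counted from the 5' end used for the peaks, the Sesn2 peak at 762 to 510 bases upstream lies beyond a window of 250 bases. The gene's length in RefSeq and in the expression table differs by 17 bp for Gtse1 and by 817 bp for Sesn2, so the Sesn2 starts may not be the same.
Gtse1: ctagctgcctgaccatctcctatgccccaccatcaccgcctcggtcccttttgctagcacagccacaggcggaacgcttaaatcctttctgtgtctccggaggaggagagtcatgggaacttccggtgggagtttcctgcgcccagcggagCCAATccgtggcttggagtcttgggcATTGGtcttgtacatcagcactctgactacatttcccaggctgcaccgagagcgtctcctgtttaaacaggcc
Sesn2: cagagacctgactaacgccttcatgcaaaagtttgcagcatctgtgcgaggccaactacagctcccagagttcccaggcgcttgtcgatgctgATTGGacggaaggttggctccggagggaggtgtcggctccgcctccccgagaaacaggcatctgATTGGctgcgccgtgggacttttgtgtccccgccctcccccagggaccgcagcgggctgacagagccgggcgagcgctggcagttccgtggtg

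Each of these windows holds CCAAT more than once, as do those of Ccng1 and Btg2, which had no peak within 10 kb. CCAAT was found in 7 of 12 windows of the set and in 33.9% of all promoter windows. The 7-base core of DMRT sites, ACATTGT, was searched on both strands and found in 0 of 12 windows, against 2.56% of all windows. This says only that these letters are not in these 250 bases.

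The remaining peaks lay farther from the starts. Trp73 carried 1 peak at 2843 bp inside the gene (153511380 to 153511569, score 85.8) and 1 at 3634 bp upstream (153517840 to 153518062, score 183). The upstream peak was nearer to the 5' end of Wdr8, at 1470 bp. Another, at a score of 222, lay inside the gene 53.8 kb from its 5' end. Cdkn1a carried 1 inside the gene, 6869 bp from its 5' end (chromosome 17, 29234714 to 29234872, score 97.7). The Fas gene carried 1 peak at 7820 bp upstream of its 5' end (chromosome 19, 34357260 to 34357399, score 84.1), and a stronger one 34.8 kb upstream that was 515 bp from the 5' end of Acta2.

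Btg2 had a group of peaks beyond its 3' end. It carried 5 peaks within 50 kb of its 5' end, which 3.35% of all genes in the table had or exceeded, and it was the 1 gene of the set to do so. The strongest ran from 135959754 to 135960137 on chromosome 1 (mm9), 15.8 kb downstream of the 5' end, and its score of 505 ranks 408 of 14862. The others downstream were at 11.2, 11.9 and 18.6 kb, with scores of 201, 128 and 91.2, and Btg2 had the nearest 5' end to all 4. Mdm2 had 2 peaks, 33.3 and 36.6 kb upstream, both nearer to the 5' end of Slc35e3. The nearest peak to Trp53 was 45.8 kb upstream. For Ccng1 and Trp63 it was 192 and 898 kb away.

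**Figure D5:**
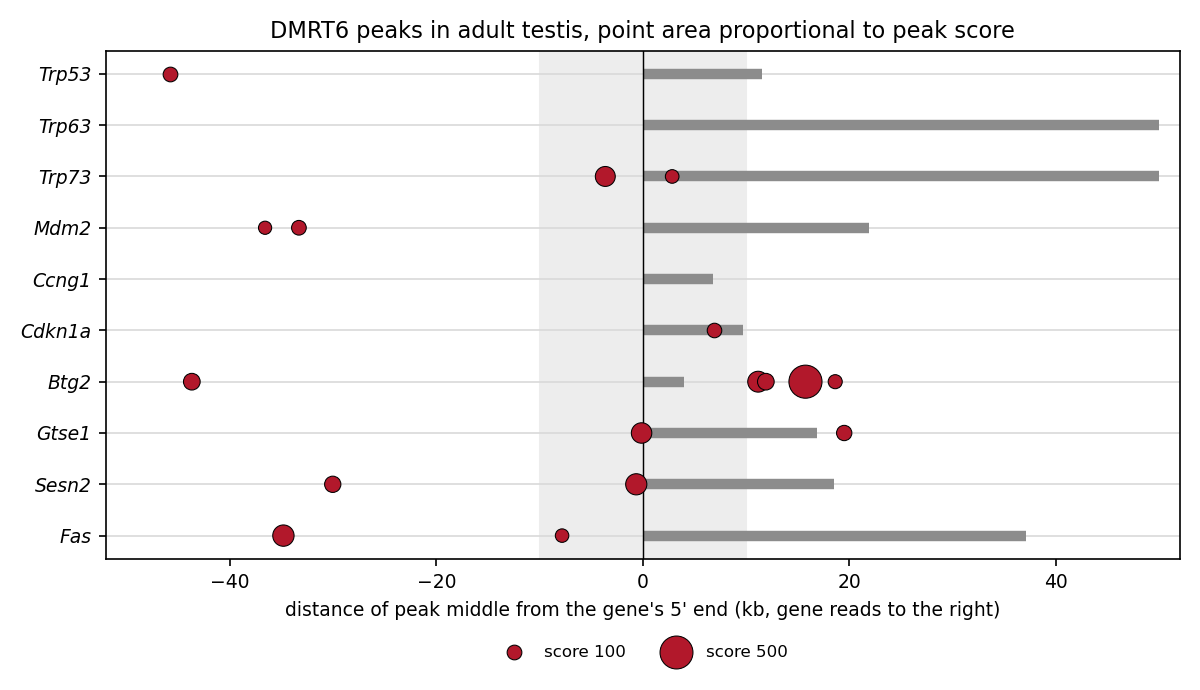
DMRT6 peaks within 50 kb of the 5' end of each gene, by distance in kb with the gene reading to the right, and with point area proportional to the authors' score. Thick bars are gene bodies, drawn to 50 kb for the long Trp63 and Trp73 genes, and the shaded band marks 10 kb either side. Points sit at the start of Gtse1 and Sesn2, and the largest point is the Btg2 peak at a score of 505.

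Both genes with no overlap in expression had peaks, Sesn2 just upstream of its start and Btg2 beyond its end, within 50 kb of their 5' ends. So had Trp53, Trp73, Mdm2, Cdkn1a, Gtse1 and Fas, which overlapped, and 61.7% of all genes in the table. Expression was measured at P8 and binding in the adult, and no test relates them. Of the other 44 p53 pathway genes, all of them tested, 14 or 31.8% had a peak within 10 kb. That share was 31.2% over tested genes and 27.9% over all genes. The 14 were 4 of the 17 targets for arrest and repair, 3 of the 11 cell death targets and 7 of the 16 regulators. These regulators included Atm, Atr, Prkdc and Trp53bp1 of the DNA damage response and the Mdm2 relative Mdm4.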

How the data were processed

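RNA libraries (TruSeq, per the labels' protocols) came from 6 P8 testes samples. The expression values are log2 CPM, deposited by the authors. Per the submitters' processing notes, tools were edgeR, Picard, Bowtie2 and STAR 2.3.0e, with no roles stated, and the build was mm9. For the counter, the annotation and strand the sources used here give nothing. Whole reads were recovered from the steps of the values: within a tolerance of 0.001, 100% were whole. The peak score is the authors' own value in the deposited peak list, on a scale no header states. The peak file's name gives MACS 1.4 and removal of duplicates.

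limma-trend (limma 3.58.1, R 4.3.3) was run on genes whose mean log2 CPM was 0 or more, with genotype as the only term, no pseudocount beyond the authors' own, and Benjamini-Hochberg adjustment over all 16634 genes. On simulated data it recovered 52% of 100 genes changed by 1 log2 unit and 84% of 100 changed by 2. The simulation drew noise for each gene independently and called 137 genes in all, where the real fit called 1. Its shares therefore do not give the power of the real comparison. The 3 libraries of each genotype are biological replicates per the design text. An exact permutation test of 3 against 3 cannot go below 0.1. Same-numbered libraries did not deviate together (correlations of -0.22 to -0.04, against -0.14 to 0.23 for other pairs), so the numbers were not taken to pair them. Deviations were taken from the mean of only 3 libraries of a genotype, so these correlations cannot settle the pairing. Peaks were assigned by their middle within 10 kb of the 5' end. Alternatives covered filters, scaling, weights, pseudocount, voom, the block, each library left out, and peak windows and scores. Leaving out libraries for the lists was chosen after the data were seen. Limits on reads cover counting error only.

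The genes and lists were chosen with earlier results of these data known, and no list was tested as a set. The text names all 10 genes, up to 3 tested members of smallest p in each list, Dmrtb1, and the 3 genes most like the 2 tested genes of the set with the widest range over the libraries, Sesn2 and Trp63. Symbols made of Gm and digits or ending in Rik were left out of those 3. Epithelial genes, the list members named for their peaks and the genes nearest to a peak were named after the values were seen. So were the germ cell, Leydig cell and endothelial markers beyond the 3 of smallest p. Promoter windows are from RefSeq (GRCm38.p6).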

Additional observations from a re-analysis of the deposited data

How the results depend on the processing

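Sesn2, Btg2, Gtse1, Trp53 and Trp63 kept their direction in every alternative run. With one library left out, the change was 0.68 to 1.39 for Sesn2, 0.25 to 0.32 for Btg2, 0.10 to 0.31 for Gtse1, 0.01 to 0.21 for Trp53, 0.03 to 0.71 for Trp63, 0.02 to 0.36 for Cdkn1a, -0.11 to -0.03 for Mdm2, -0.020 to 0.13 for Ccng1 and -0.49 to 0.11 for Fas. Signs turned with array weights for Mdm2 (0.029) and Cdkn1a (-0.083) and with median centring for Ccng1 (-0.0060), and the cause was not tested. Trp73 entered only without the filter (unadjusted p = 0.192 in limma). Besides Sesn2 and Btg2, unadjusted p in limma fell below 0.05 for Trp63 without null replicate 3, and for Trp63 and Gtse1 with array weights. The count of genes past the threshold, 1 as reported, was 3 with no filter and with median centring, 2 with quantile normalization, 0 with a filter at 2 on the mean log2 CPM and 136 with array weights, whose estimation did not converge, and 0 to 5 with one library left out, 0 without null replicate 1 and 5 without null replicate 3. With the replicate number as a block it was 2, and no gene of the set was called. Of the 5 genes with a peak within 10 kb, 2 had one within 2 kb. The count was 3 at 5 kb, 8 at 50 kb and 3 for scores of at least 100. Of all genes, 15.5% had a peak within 2 kb, 20.9% within 5 kb and 61.7% within 50 kb. For scores of at least 100 the share of all genes was 14.3%. Levels as low as that of Trp73 limit what this depth can show.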

Other observations

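Markers of other somatic cells gave mixed values. Of 5 endothelial markers 2 were higher and 3 lower in null, with a median of -0.28 (-0.43 to -0.13 with a library left out). Tek, the angiopoietin receptor gene, differed by -0.52 (SE 0.15, unadjusted p = 0.0079, limma adjusted p = 0.755). The 2 higher were Cdh5 by 0.07 and Tie1 by 0.05. Of 5 Leydig cell markers 2 were higher and 3 lower, with a median of -0.19 (-0.46 to 0.01). The steroidogenic enzyme gene Hsd3b1 differed by -0.38 (SE 0.12), Insl3 by -0.53 and Cyp11a1 by -0.19. The 2 higher were Cyp17a1 by 0.61 (SE 0.43) and Star by 0.36 (SE 0.46). Peritubular and stromal markers had a median of -0.06 (-0.28 to 0.14), with 2 of 5 higher.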
